A study of Homo sapiens with 9 samples.

Results

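Cells make cholesterol and fatty acids from acetyl-CoA, and the enzymes of both routes are set largely by the SREBP transcription factors, which SREBF1 and SREBF2 encode. When membranes are short of sterol, SCAP escorts the SREBP precursors from the endoplasmic reticulum to the Golgi for cleavage, and when sterol is plentiful INSIG1 holds that complex back. Liver is the main organ of this synthesis, and lipid synthesis enzymes are often highly expressed in hepatocellular carcinoma (HCC). The genes described here were listed by name as the SREBP factors and their lipid synthesis targets, and all 28 listed names were found among the 60642 gene names measured. They are 7 genes of the mevalonate arm (ACAT2, HMGCS1, MVK, PMVK, MVD, IDI1, FDPS), 11 genes of the arm from squalene to cholesterol (FDFT1, SQLE, LSS, CYP51A1, TM7SF2, MSMO1, NSDHL, HSD17B7, EBP, SC5D, DHCR7), 5 regulators and transport genes (SREBF1, SREBF2, SCAP, INSIG1, STARD4) and 5 genes of the fatty acid arm (ACLY, ACACA, FASN, SCD, ELOVL6).

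RNA-seq was made from SNU-398 cells, an HCC line of mesenchymal-like character. The study asked what EMX1, a homeodomain transcription factor, changes in these cells when it is overexpressed as the full-length protein (EMX1-FL) or as a splice isoform with another terminal exon (EMX1-X1). The 9 libraries form 3 groups of 3: a vector control labelled as wild type, cells that overexpress EMX1-FL and cells that overexpress EMX1-X1. The isoforms were brought in by lentivirus and expressed stably, and cells of every group went through puromycin screening and grew in the same serum-containing medium. The labels do not say whether the 3 libraries of a group came from separate cultures, so p-values measure the spread between libraries, which may be technical.

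Between 21562703 and 25197970 read pairs were counted per library, with a median of 23775424. After a filter on low counts 18574 genes were tested, and all 28 lipid synthesis genes passed it. Levels are given as CPM, counted read pairs per 1000000 of a library total that was scaled by its TMM factor, a correction between libraries. Where genes are compared with each other they are given as TPM, which divides by gene length and has no such factor. EMX1 read 9.34, 9.99 and 12.9 CPM in the vector control libraries, 251, 135 and 145 CPM in EMX1-FL and 145, 294 and 288 CPM in EMX1-X1, in the direction of the labels. Counts per gene do not tell the isoforms apart. On the first principal component of all genes, which held 39.6% of the variance, the libraries fell into 2 clusters that crossed the groups: vector control 1 and 2, EMX1-FL 2 and 3 and EMX1-X1 1 (cluster A), and vector control 3, EMX1-FL 1 and EMX1-X1 2 and 3 (cluster B). These clusters were drawn from the counts and are not conditions. Of 12 hepatocyte markers only 2 passed the filter, and their summed level was between 0.904 and 3.86 TPM in the 9 libraries, with 5 of the 12 at 0 counts in every EMX1-FL library, 5 in every EMX1-X1 library and 6 in every vector control library. All 8 mesenchymal markers passed the filter, with a summed level between 1116 and 1458 TPM.

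SREBPs bind sterol regulatory elements in promoters, together with factors that bind CCAAT and GC boxes, so the promoter letters of the regulator SREBF2 and of the enzyme HMGCS1 are shown first. SREBF2 was the only one of 24 genes with a window at hand that held the sterol regulatory element letters, and HMGCS1, chosen after its values were seen, had the smallest p of the list. Sequences are from RefSeq on GRCh38.p14, cover the 150 bases before the start site and read 5′ to 3′ on the strand of the gene. Capitals mark the sterol regulatory element letters TCACCCCAC and the CCAAT box read on the other strand, ATTGG.
SREBF2, chr22:41832955-41833104, plus strand: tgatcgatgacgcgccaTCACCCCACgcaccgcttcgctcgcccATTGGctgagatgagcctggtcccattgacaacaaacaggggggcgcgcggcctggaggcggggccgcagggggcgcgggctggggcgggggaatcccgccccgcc
HMGCS1, chr5:43313413-43313562, minus strand: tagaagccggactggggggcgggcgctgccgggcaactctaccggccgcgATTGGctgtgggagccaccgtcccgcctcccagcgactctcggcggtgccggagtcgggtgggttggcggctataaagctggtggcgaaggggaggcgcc

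In SREBF2 the sterol regulatory element letters begin 133 bases before the start site and the ATTGG letters 106 bases before it. In the HMGCS1 stretch the ATTGG letters begin 100 bases before the start. These start sites are those of RefSeq. The Ensembl positions used for the counts place the starts further upstream, at 41833079 for SREBF2 and 43313512 for HMGCS1. By those positions part of each printed stretch lies inside the gene. Windows from 250 bases before to 50 after the start were at hand for 24 of the 28 genes, all but FASN, ACAT2, SQLE and FDFT1, and were searched on both strands. TCACNCCAC was found in 1 of 24 genes (4.17%), against 1.41% of 11530 tested genes with a window and 1.13% of 35116 windows. The CCAAT box, CCAAT, was found in 19 of 24 genes (79.2%), against 43.1% of the tested genes and 34.6% of all windows. The GC box, GGGCGG, was found in 23 of 24 genes (95.8%), against 75.7% and 45.0%. The homeodomain core TAATTA, a letter pattern that many homeodomain proteins bind, was found in 1 gene, FDPS (4.17%), against 3.36% and 4.84%. A match describes letters only and does not show that a factor binds there.

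In vector control cells all 28 genes were expressed, across a wide range of TPM. SCD, the desaturase that makes oleate from stearate, was the highest at 3359 ± 101 TPM (SD, n = 3), and FASN, the fatty acid synthase, came next at 588 ± 134 TPM. Below them stood INSIG1 (270.2 ± 4.77 TPM), ACLY, which makes cytosolic acetyl-CoA from citrate (261 ± 33.1 TPM), and SREBF1 (229 ± 17.2 TPM), the factor most tied to fatty acid genes. The ranges of INSIG1 and ACLY overlapped, so their order was not settled, whereas SCD lay above every other gene in every library. SREBF2, the factor most tied to sterol genes, was at 165 ± 5.74 TPM, below SREBF1 in each vector control library. Among enzymes of sterol synthesis FDPS, which makes farnesyl diphosphate, was the highest at 199 ± 27.4 TPM, and DHCR7, which makes cholesterol from its last precursor, was at 179.6 ± 15.2 TPM with an overlapping range. The first 2 steps that commit farnesyl diphosphate to sterols, FDFT1 and SQLE, were at 136 ± 15.6 and 137 ± 8.02 TPM and overlapped. HSD17B7 (17.0 ± 1.16 TPM), MVK (18.5 ± 4.05 TPM) and CYP51A1 (9.36 ± 1.79 TPM) were the lowest. The value of CYP51A1 is uncertain, since 84.5% of its exon bases overlap other genes and read pairs on such bases were not counted. HSD17B7 shares sequence with the pseudogene HSD17B7P2, which had between 126 and 271 counts per library.

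**Figure D1:**
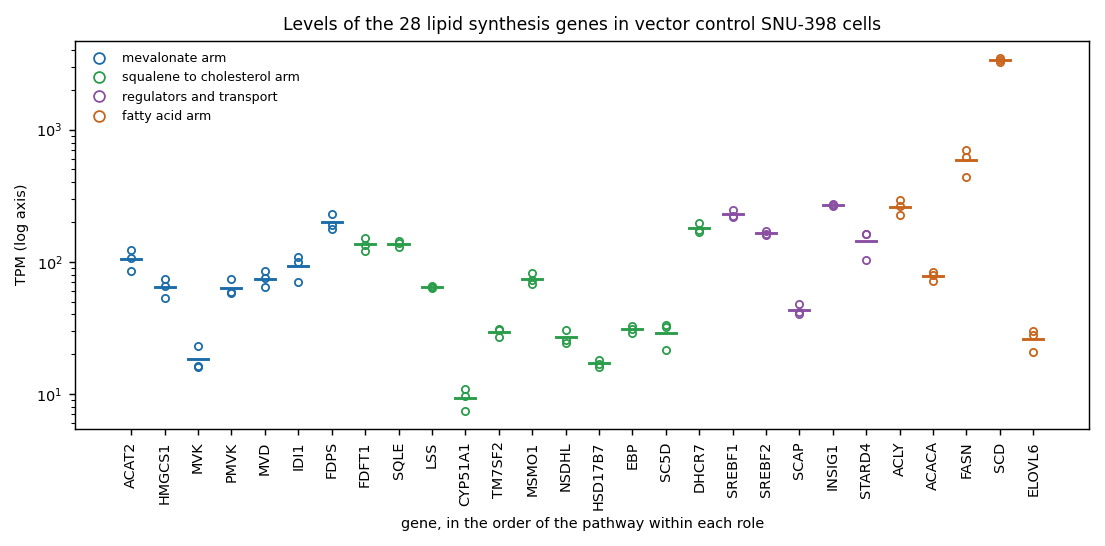
TPM (log axis) of the 28 genes in vector control cells, in pathway order and coloured by role. Circles are the 3 libraries and the bar is their mean. SCD stands highest at a mean of 3359 TPM and CYP51A1 lowest at 9.36 TPM.

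In EMX1-FL cells the list as a whole was close to the vector control. HMGCS1 and MSMO1 were higher at an unadjusted p under 0.05, no gene was lower, and none passed after adjustment (edgeR quasi-likelihood test, Benjamini-Hochberg over all genes tested). DESeq2, too, called 0 of the 28 after adjustment in each of the 3 comparisons. In bulk RNA fewer cells that express a gene and less RNA per cell cannot be told apart. All 7 genes of the mevalonate arm had a fold change above 0, with a median of 0.40 on the log2 scale and only HMGCS1 past the unadjusted threshold. That direction rested on EMX1-FL 1: without it 2 of the 7, HMGCS1 and IDI1, were above 0 and 5 below, with a median of -0.16. Without vector control 1, 5 were above 0 and 2 below. The count of 2 of 28 higher stands against 3.97% of all genes tested, that of 0 lower against 1.83%, and the 2 in either direction against 5.8%. At the DEG threshold of the study, an unadjusted p under 0.05 together with a log2 change of 1 or more either way, 0 of 28 were called against 2.42% of all genes. At an adjusted p under 0.05, 0 of 28 were called against 0.07% of all genes. The median log2 fold change was 0.15 over the 28 genes and 0.04 over all genes tested, and 21 of the 28 were above 0, as were 56.3% of all genes.

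HMGCS1 encodes the cytosolic HMG-CoA synthase, which feeds the mevalonate pathway, and lies at chr5:43287470-43313512 on the minus strand (GRCh38). It read 118, 138 and 109 CPM in the vector control libraries and 134, 176 and 181 CPM in EMX1-FL. EMX1-FL 2 and 3 were above every vector control library, while EMX1-FL 1 was inside their range. The log2 fold change was 0.43 (SE 0.18, unadjusted p = 0.0357, edgeR adjusted p = 0.824). Within cluster A the difference was 0.48 and within cluster B, with 1 library a side, 0.30. A share of 37.7% of its exon bases overlaps AC114947.2, so its level is read from the rest. Leaving out any of vector control 1, vector control 3, EMX1-FL 2, EMX1-FL 3, EMX1-X1 2 or EMX1-X1 3 took its unadjusted p above 0.05, with log2 fold changes between 0.34 and 0.43 in those fits.

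MSMO1 encodes the methylsterol monooxygenase that removes methyl groups from the sterol ring, and lies at chr4:165327667-165343164 on the plus strand. It read 52.1, 66.2 and 63.3 CPM in the vector control libraries and 58.0, 100.1 and 121 CPM in EMX1-FL. EMX1-FL 2 and 3 stood well above the control range and EMX1-FL 1 inside it. The log2 fold change was 0.62 (SE 0.24, unadjusted p = 0.0236, edgeR adjusted p = 0.733). The difference was 0.91 within cluster A and -0.13 within cluster B. Without EMX1-FL 1 it was 0.87, with an adjusted p of 0.0325 by edgeR. Without EMX1-FL 3 it was 0.38 (edgeR unadjusted p = 0.137), and without vector control 1 or EMX1-FL 2 it was 0.52 and 0.55, also with an unadjusted p above 0.05.

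STARD4, which carries cholesterol between membranes, had the next smallest p among the genes higher in EMX1-FL. It read 250.1, 258 and 179 CPM in the vector control libraries and 193, 393 and 464 CPM in EMX1-FL, so that EMX1-FL 1 was within the control range and the other two were above it. Its log2 fold change was 0.61 (SE 0.29, unadjusted p = 0.0551, edgeR adjusted p = 0.865). ELOVL6, which lengthens palmitate to stearate, read 55.1, 60.9 and 46.9 CPM in the control and 60.9, 79.3 and 71.8 CPM in EMX1-FL, a log2 fold change of 0.38 (unadjusted p = 0.0788, edgeR adjusted p = 0.941). Groups that did not overlap were seen for 2 of 28 genes, against 10.5% of all genes tested. SQLE, the squalene epoxidase, was one: 149, 174 and 182 CPM in the control and 202, 189 and 213 CPM in EMX1-FL. SCD was the other, and lower: 4612, 4917 and 5575 CPM in the control and 3958, 4148 and 4602 CPM in EMX1-FL. Its lowest control library and highest EMX1-FL library were almost level. In TPM EMX1-FL 3, at 3403, lay inside the control range of 3266 to 3467. Neither passed the unadjusted threshold (SQLE 0.26, p = 0.12; SCD -0.25, p = 0.0837, both by edgeR), and the exact permutation test gave p = 0.1 for each, the smallest it can give with 3 libraries against 3.

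FASN and the regulators gave no call in this comparison. FASN read 1106, 1618 and 2011 CPM in the vector control libraries and 2564, 1462 and 1326 CPM in EMX1-FL, a log2 fold change of 0.18 with a 95% interval from -0.48 to 0.84. The spread of FASN within each group was wider than the gap between their means. SREBF1 read 491, 502 and 629 CPM in the control and 602, 394 and 429.9 CPM in EMX1-FL (-0.19, 95% interval -0.69 to 0.32). SREBF2 read 349, 339.7 and 378 CPM in the control and 389, 285 and 327 CPM in EMX1-FL (-0.09, 95% interval -0.48 to 0.30). For both factors EMX1-FL 2 and 3 were the lowest of the 6 libraries, while EMX1-FL 1 was within or above the control range. SCAP read 70.0, 70.6 and 93.2 CPM against 86.0, 58.8 and 65.3 CPM, and INSIG1 read 261, 275 and 308 CPM against 262, 320.5 and 401 CPM. Their log2 fold changes were -0.15 and 0.22, and both intervals included 0.

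**Figure D2:**
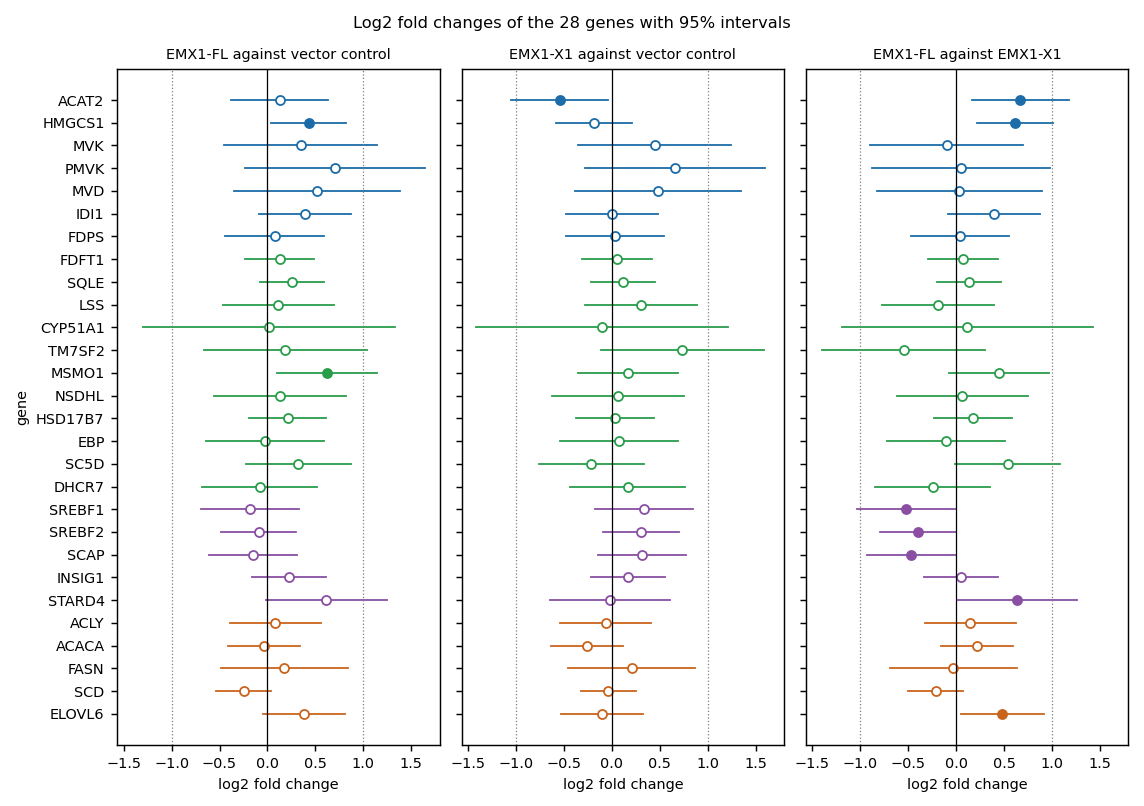
Log2 fold change of the 28 genes in each of the 3 comparisons, with the 95% interval from edgeR. Filled points have an unadjusted p under 0.05, colours mark the roles, and dotted lines stand at a log2 fold change of 1 in either direction, past which no point lies. The 7 filled points for EMX1-FL against EMX1-X1 lie on both sides of 0.

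In EMX1-X1 cells the only call was ACAT2, which was lower at an unadjusted p. No gene of the list was higher at that threshold and none passed after adjustment (edgeR, Benjamini-Hochberg). The count of 1 of 28 lower stands against 2.16% of all genes tested, that of 0 higher against 5.95%, and the 1 in either direction against 8.11%. The DEG threshold was met by 0 of 28, against 2.5% of all genes, and an adjusted p under 0.05 by 0 of 28, against 0.00538%, which is EMX1 itself. The median log2 fold change was 0.07 over the 28 genes and 0.01 over all genes tested, with 19 of 28 above 0, as were 51.1% of all genes. By role the medians were 0.03 for the mevalonate arm, 0.08 for squalene to cholesterol, 0.31 for regulators and transport and -0.06 for the fatty acid arm.

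ACAT2, the cytosolic acetyl-CoA acetyltransferase that makes the first intermediate of the mevalonate arm, lies at chr6:159762045-159779112 on the plus strand. It read 60.9, 79.4 and 98.6 CPM in the vector control libraries and 63.2, 50.6 and 50.2 CPM in EMX1-X1. EMX1-X1 2 and 3 were below every control library and EMX1-X1 1 was inside their range. The log2 fold change was -0.54 (SE 0.23, unadjusted p = 0.0376, edgeR adjusted p = 0.584). It was -0.97 within cluster B, where 2 EMX1-X1 libraries face vector control 3, and -0.14 within cluster A. Without vector control 3 it was -0.38 (edgeR unadjusted p = 0.149), and without vector control 2, EMX1-X1 2 or EMX1-X1 3 the unadjusted p was also above 0.05. A share of 22.2% of its exon bases overlaps other genes.

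The regulators SREBF1, SREBF2 and SCAP were higher in EMX1-X1 2 and 3, of cluster B, than in EMX1-X1 1, of cluster A. SREBF1 read 459.8, 804 and 784 CPM, SREBF2 344, 489 and 485 CPM, and SCAP 77.3, 109.6 and 105 CPM. For all 3 genes EMX1-X1 2 and 3 were above every vector control library and EMX1-X1 1 was within or below the control range. The log2 fold changes were 0.34 for SREBF1, 0.31 for SREBF2 and 0.32 for SCAP, with unadjusted p-values of 0.176, 0.115 and 0.157 by edgeR. Within cluster B, where EMX1-X1 2 and 3 face vector control 3, the differences were 0.34, 0.37 and 0.20. Within cluster A they were -0.11, 0.0003 and 0.14. INSIG1 read 283, 332 and 332 CPM in EMX1-X1 (0.17, 95% interval -0.22 to 0.55), and FASN read 1189, 2205 and 2069 CPM (0.21, 95% interval -0.45 to 0.87). With an offset for the GC content of each gene SREBF1 (-0.08), SCAP (-0.06) and FASN (-0.27) changed sign and SREBF2 was at 0.05, none past the unadjusted threshold. STARD4 read 277, 209.6 and 190.2 CPM, with a log2 fold change of -0.02 (95% interval -0.65 to 0.61). MSMO1 was the only gene of the list whose EMX1-X1 libraries, at 67.2, 68.1 and 69.0 CPM, did not overlap the control, which 14.7% of all genes tested also did, and its log2 fold change was 0.17 (edgeR unadjusted p = 0.491).

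Between the isoforms 7 of the 28 genes were called. HMGCS1, ACAT2, ELOVL6 and STARD4 were higher in EMX1-FL than in EMX1-X1 at an unadjusted p under 0.05, and SREBF1, SREBF2 and SCAP were lower. Each of the 7 had an adjusted p of 0.611 (edgeR, Benjamini-Hochberg), so none passed the correction. The 4 of 28 higher stand against 2.98% of all genes tested, the 3 lower against 4.66% and the 7 in either direction against 7.63%. With upper-quartile scaling the split was 5 higher and 0 lower, against 3.41% and 4.16% of all genes. With the GC offset it was also 5 and 0, against 4.08% and 5.13%. The DEG threshold was met by 0 of 28, against 1.42% of all genes. An adjusted p under 0.05 was met by 0 of 28, against 0% of all genes, although 1418 of the 18574 genes had an unadjusted p under 0.05. The median log2 fold change was 0.06 over the 28 genes and 0.02 over all genes, and the medians by role were 0.05 for the mevalonate arm, 0.07 for squalene to cholesterol, -0.40 for regulators and transport and 0.15 for the fatty acid arm. The 3 comparisons share libraries, so their values are not independent of each other.

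HMGCS1 had the smallest p of the list. Its EMX1-FL libraries, at 134, 176 and 181 CPM, were all above its EMX1-X1 libraries, at 121, 105 and 93.7 CPM. The log2 fold change was 0.62 (SE 0.18, unadjusted p = 0.00533, edgeR adjusted p = 0.611). It was 0.56 within cluster A and 0.43 within cluster B, and it stayed past the unadjusted threshold under each of 22 alternatives, between 0.36 and 0.76. ACAT2 did not overlap either, with 103, 94.1 and 63.3 CPM in EMX1-FL and 63.2, 50.6 and 50.2 CPM in EMX1-X1. The lowest EMX1-FL library and the highest EMX1-X1 library were almost level. Its log2 fold change was 0.67 (SE 0.23, unadjusted p = 0.0141, edgeR adjusted p = 0.611), with 0.29 within cluster A and 1.03 within cluster B. Such a lack of overlap was seen for these 2 of 28 genes, against 8.38% of all genes tested.

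ELOVL6, at chr4:110045846-110199199 on the minus strand, read 60.9, 79.3 and 71.8 CPM in EMX1-FL and 62.0, 47.8 and 42.0 CPM in EMX1-X1. EMX1-FL 1 and EMX1-X1 1 were nearly equal and the other libraries did not overlap. The log2 fold change was 0.48 (SE 0.20, unadjusted p = 0.0316, edgeR adjusted p = 0.611), with 0.28 within cluster A and 0.44 within cluster B. STARD4, at chr5:111496033-111512590 on the minus strand, read 193, 393 and 464 CPM in EMX1-FL and 277, 209.6 and 190.2 CPM in EMX1-X1. EMX1-FL 1 lay among the EMX1-X1 libraries. The log2 fold change was 0.63 (SE 0.29, unadjusted p = 0.0484, edgeR adjusted p = 0.611), with 0.63 within cluster A and -0.05 within cluster B. It fell short of the unadjusted threshold in 13 of 22 alternatives, among them the GC offset, at 0.21 (edgeR unadjusted p = 0.0728), and the fit without EMX1-FL 3, at 0.38 (edgeR unadjusted p = 0.227).

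The regulators stood the other way. SREBF1, at chr17:17810399-17837011 on the minus strand, read 602, 394 and 429.9 CPM in EMX1-FL and 459.8, 804 and 784 CPM in EMX1-X1, so EMX1-X1 2 and 3 were above and EMX1-X1 1 was inside the EMX1-FL range. Its log2 fold change was -0.52 (SE 0.23, unadjusted p = 0.0463, edgeR adjusted p = 0.611). SREBF2, at chr22:41833079-41907307 on the plus strand, gave -0.40 (SE 0.18, unadjusted p = 0.0476, edgeR adjusted p = 0.611). SCAP, at chr3:47413681-47477126 on the minus strand, gave -0.47 (SE 0.21, unadjusted p = 0.0450, edgeR adjusted p = 0.611). For these 2 genes, too, EMX1-X1 2 and 3 were above every EMX1-FL library and EMX1-X1 1 was not. Within cluster A the differences were -0.16 for SREBF1, -0.18 for SREBF2 and -0.32 for SCAP, and within cluster B -0.40, -0.32 and -0.32. With the GC offset they shrank to -0.12, -0.14 and -0.11 and no longer passed the unadjusted threshold (edgeR unadjusted p = 0.291, 0.223 and 0.392). With the cluster as a covariate they were -0.32, -0.28 and -0.32 and passed it (edgeR unadjusted p = 0.0121, 0.0209 and 0.00651). The adjusted p-values of that fit were 0.264, 0.297 and 0.236 by edgeR. The clusters were drawn from these same counts, so the p-values of that fit can be too small. INSIG1 (0.05, 95% interval -0.33 to 0.44) and FASN (-0.03, 95% interval -0.69 to 0.63) gave no call. FASN turned positive with the GC offset, at 0.39 (edgeR unadjusted p = 0.0205, adjusted p = 0.481).

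**Figure D3:**
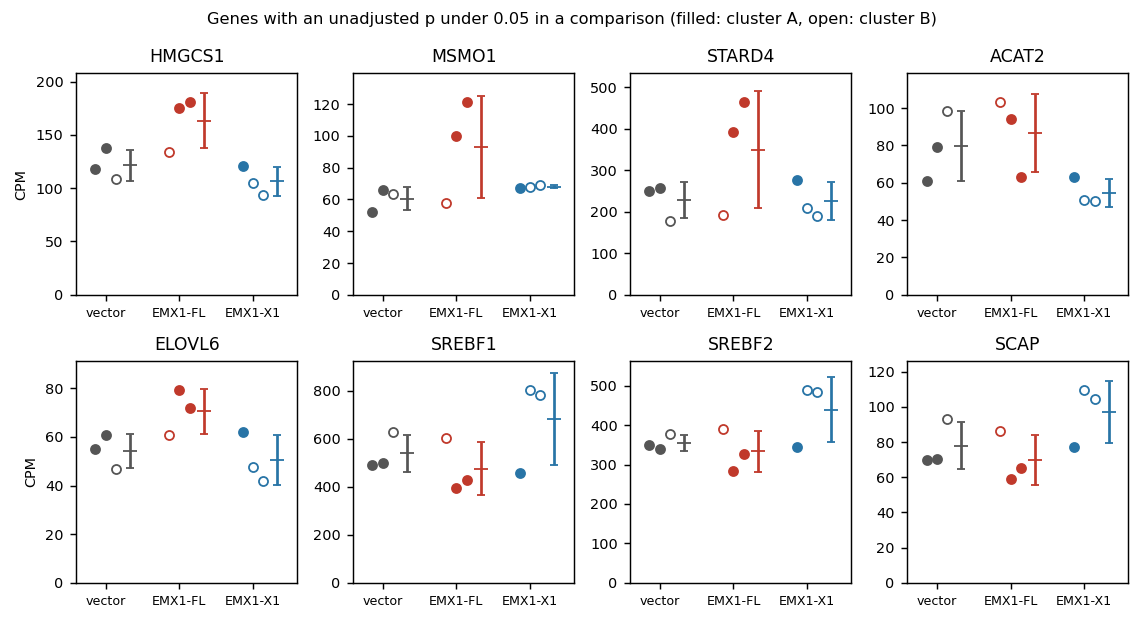
CPM of the 8 genes with an unadjusted p under 0.05 in a comparison, by group, with each axis starting at 0. Points are libraries, filled for cluster A and open for cluster B, and the cross-bar with whiskers is the mean with 1 SD of the 3 libraries. In EMX1-FL the cluster B library is the lowest for HMGCS1, MSMO1, STARD4 and ELOVL6 and the highest for SREBF1, SREBF2, SCAP and ACAT2.

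Across the 9 libraries many of the 28 genes differed between the clusters. Together they took between 0.929 and 1.18% of all counts. Their summed level was 9233, 10362 and 11809 CPM in the vector control libraries, 11263, 9507 and 9990 CPM in EMX1-FL and 9380, 11612 and 11758 CPM in EMX1-X1. The 4 cluster B libraries were above all 5 of cluster A, and each group had libraries on both sides. SCD and FASN weigh most in this sum. The mean of FASN was 1340 CPM in cluster A and 2212 CPM in cluster B, and that of SCD 4565 and 4928 CPM, with overlap. A difference above 0 was seen for 21 of the 28 genes, against 50.6% of all genes tested. Of the 28 genes, 13 were higher in cluster B without overlap, against 16% of all genes tested, and 3 were lower without overlap, against 17.1%. The 13 were MVK, PMVK, MVD, FDPS, LSS, TM7SF2, NSDHL, EBP, DHCR7, SREBF1, SREBF2, SCAP and FASN, with differences of mean log2 CPM between 0.40 and 1.01. The 3 were IDI1, SC5D and STARD4, at -0.45, -0.66 and -0.72. The median difference was 0.38 over the 28 genes and 0.01 over all genes. Since the clusters were drawn from these libraries, the differences are a description with no test.

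The same genes differed in base composition. The 13 genes higher in cluster B had transcripts of 50.5 to 65.3% GC, and the 3 lower ones of 34.2 to 41.1% GC. Across the 28 genes the GC content of the longest transcript and the difference between clusters had a Pearson r of 0.81 and a Spearman rho of 0.82. Across all 17752 tested genes with a GC value they were 0.79 and 0.81, and the median GC content was 50.3% for the 28 genes and 48.1% for all. Genes are not independent replicates and share the same libraries, so no p is given. CYP51A1 was off this line, with 41.5% GC and a difference of 1.08. It had between 62 and 478 counts per library, and 84.5% of its exon bases overlap other genes. Its GC value covers the longest transcript and not only the bases that were counted. Fits with a GC offset are given for some differences between groups. The offset was drawn from these same libraries, and the clusters are spread unevenly over the groups. It can therefore also take up a difference between groups, and the 2 cannot be told apart.

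EMX1-FL 1 had the highest level for 13 of the 28 genes, and EMX1-FL 3 had the highest for 8 others. PMVK, the phosphomevalonate kinase, read 56.8 CPM in EMX1-FL 1 and between 14.3 and 32.96 CPM in the other 8 libraries. MVD, the mevalonate diphosphate decarboxylase, read 254 CPM there and between 81.2 and 170.1 CPM elsewhere, and CYP51A1, the lanosterol demethylase, read 21.2 CPM there and between 2.86 and 11.6 CPM elsewhere. EMX1-FL 2 and 3, by contrast, had the lowest levels of CYP51A1 with EMX1-X1 1, at 4.30, 2.86 and 4.41 CPM. TM7SF2, a sterol reductase, was highest in EMX1-X1 3 at 60.8 CPM and next in EMX1-FL 1 at 58.2 CPM. Lowest levels fell on vector control 1 for 7 genes and on EMX1-FL 3 for 7. Without EMX1-FL 1, 11 of the 28 genes had an unadjusted p under 0.05 in EMX1-FL against the vector control, where 16.4% of all genes did, and 18 did against EMX1-X1, where 34.7% of all genes did. In that fit MSMO1 was higher after adjustment by edgeR against the vector control (adjusted p = 0.0325), 1 of 28 against 0.563% of all genes. Against EMX1-X1 4 of 28 passed the adjustment, as did 6.05% of all genes: MSMO1, HMGCS1 and STARD4 were higher and TM7SF2 lower, at -1.23 (edgeR adjusted p = 0.0457 for each). EMX1-FL then holds only cluster A libraries, while EMX1-X1 2 and 3 and vector control 3 are of cluster B. Group and cluster therefore cannot be fully told apart in either comparison. Within cluster A only EMX1-X1 1 faces EMX1-FL 2 and 3. The differences there were 0.71 for MSMO1, 0.56 for HMGCS1, 0.63 for STARD4 and -0.56 for TM7SF2. With all libraries and the cluster as a covariate MSMO1 was at 0.34, HMGCS1 at 0.51, STARD4 at 0.34 and TM7SF2 at -0.33. None of these passed after adjustment.

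**Figure D4:**
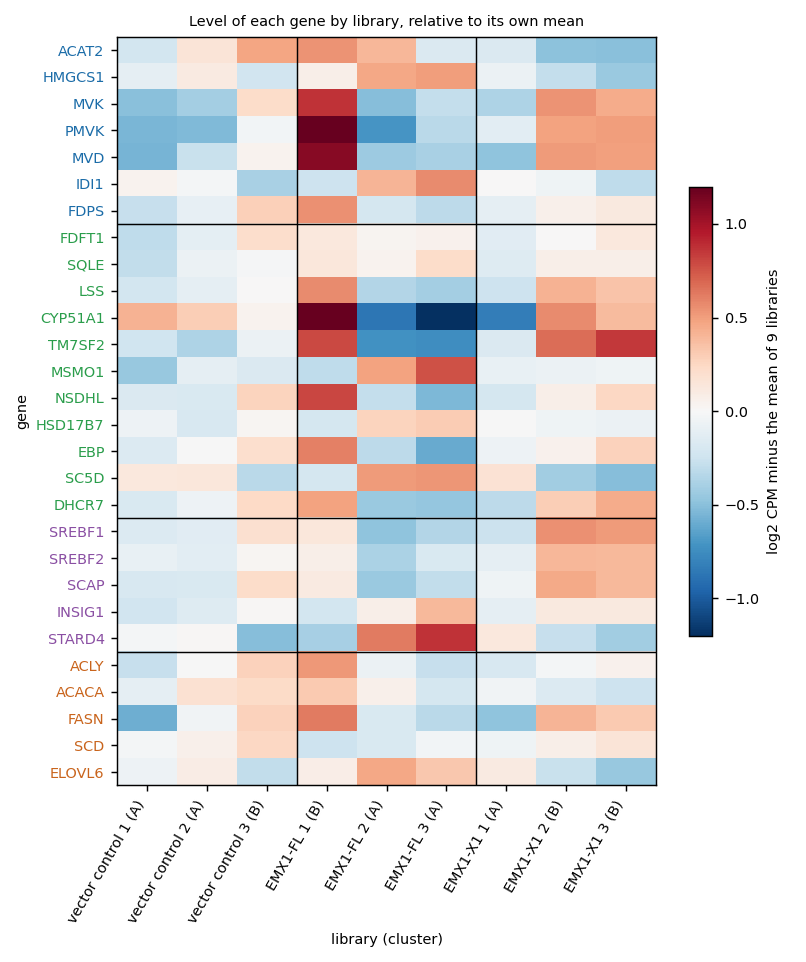
Log2 CPM of each gene in each library minus that gene's mean over the 9 libraries. Rows are the 28 genes with the roles parted by lines, from mevalonate arm at the top to fatty acid arm at the bottom, columns are libraries with their cluster in brackets, and values past the ends of the scale take its end colour. EMX1-FL 1 and EMX1-X1 2 and 3, all of cluster B, are red for most genes, while IDI1, SC5D and STARD4 are blue there.

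**Figure D5:**
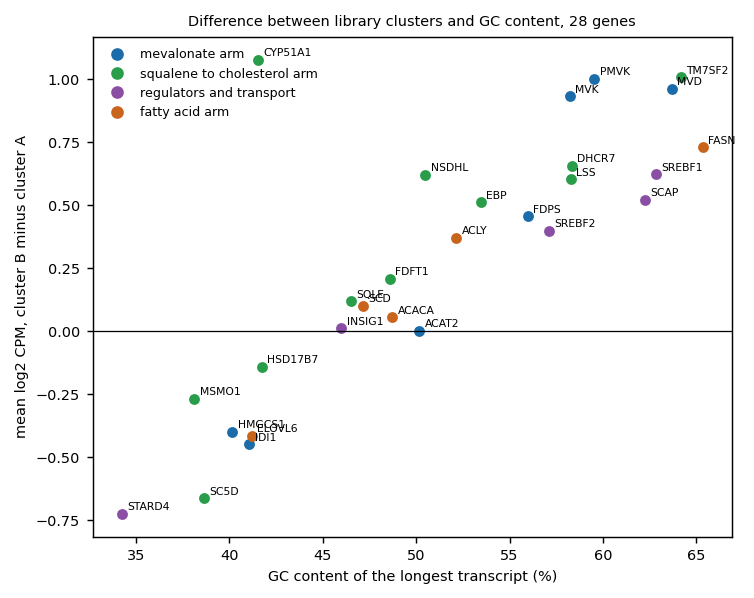
Difference of mean log2 CPM between cluster B and cluster A against the GC content of the longest transcript, for the 28 genes coloured by role. STARD4, at 34.2% GC, stands lowest at -0.72, and TM7SF2, PMVK and MVD, all above 59% GC, stand near 1.

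When the cluster was entered as a covariate, 9 of the 28 genes had an unadjusted p under 0.05 in EMX1-FL against the vector control. In that setting 15.1% of all genes did, against 5.8% without the covariate. The clusters were drawn from these same counts, so p-values with this covariate can be too small. HMGCS1 (0.42, edgeR adjusted p = 0.0607), STARD4 (0.55, adjusted p = 0.0657), ELOVL6, IDI1, SC5D, MSMO1, SQLE and PMVK were higher and SCD was lower (-0.24), and none passed after adjustment. In EMX1-X1 against the vector control ACAT2 (-0.58) and ACACA (-0.29) were lower in that fit, 2 of 28 against 12.6% of all genes. ACACA, the rate-limiting acetyl-CoA carboxylase, had read 251, 307 and 318 CPM in the vector control libraries and 264, 241 and 228 CPM in EMX1-X1. Between the isoforms HMGCS1, ACAT2, ELOVL6 and STARD4 stayed higher in EMX1-FL with the covariate, and SREBF1, SREBF2 and SCAP stayed lower. SC5D (0.33) was also higher there. Of all genes 5.58% were higher and 7.28% lower at an unadjusted p under 0.05, and 0% passed after adjustment. PMVK, MVD, IDI1, SC5D, TM7SF2 and CYP51A1 had log2 fold changes between -0.55 and 0.73 in the fit without the covariate, with no call in the 3 comparisons. MVK, FDPS, FDFT1, LSS, NSDHL, HSD17B7, EBP, DHCR7 and ACLY had log2 fold changes between -0.25 and 0.45 there, also with no call.

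Other genes of sterol synthesis, uptake and SREBP processing were read from a separate list of 19, of which 18 were tested. In EMX1-FL against the vector control 0 of the 18 were higher and 0 lower at an unadjusted p under 0.05, with a median log2 fold change of -0.04. In EMX1-X1 the lysosomal acid lipase gene LIPA, which frees cholesterol from its esters, was lower (-0.55, edgeR unadjusted p = 0.0164, adjusted p = 0.559). It read 221, 293 and 336 CPM in the vector control libraries and 230.4, 169.9 and 179.6 CPM in EMX1-X1. Between the isoforms LIPA (0.63, edgeR unadjusted p = 0.00831) and INSIG2, a relative of INSIG1 (0.54, edgeR unadjusted p = 0.0303), were higher in EMX1-FL, both with an adjusted p of 0.611. Of 24 other fatty acid and glyceride synthesis genes 22 were tested. The elongase ELOVL7 (0.86, edgeR unadjusted p = 0.0470, adjusted p = 0.855) and the acyl-CoA synthetase ACSL1 (0.35, edgeR unadjusted p = 0.0458, adjusted p = 0.852) were higher in EMX1-FL. ACSL1 was also higher in EMX1-X1 (0.38, edgeR unadjusted p = 0.0327, adjusted p = 0.582), and its 3 control libraries, at 122, 125 and 143 CPM, were below all 6 others, which were between 144.8 and 185 CPM. Between the isoforms ACSL4 was higher (0.60, edgeR unadjusted p = 0.0455) and TECR lower (-0.63, edgeR unadjusted p = 0.0236) in EMX1-FL, with an adjusted p of 0.611. The medians of this list were 0.03, 0.07 and 0.01 in the 3 comparisons. Of 14 genes of cholesterol efflux, esterification and the LXR response 9 were tested. MYLIP, which marks the LDL receptor for breakdown, was higher in EMX1-FL (0.49, edgeR unadjusted p = 0.0330, adjusted p = 0.803), at 8.38, 10.9 and 9.84 CPM against 6.08, 7.94 and 6.76 CPM in the vector control. SMPDL3A was higher in EMX1-FL than in EMX1-X1 (0.82, edgeR unadjusted p = 0.0133, adjusted p = 0.611), and EMX1-X1 against the vector control gave 0 calls among the 9.

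Of the markers read beside these results, the hepatocyte product ALB was higher in both overexpression groups at very low levels. It read 0.64, 0.44 and 0.74 CPM in the vector control libraries, 0.98, 1.64 and 2.45 CPM in EMX1-FL and 0.83, 1.58 and 1.53 CPM in EMX1-X1, with log2 fold changes of 1.46 (edgeR unadjusted p = 0.00722, adjusted p = 0.468) and 1.11 (edgeR unadjusted p = 0.0314, adjusted p = 0.576). CYP2E1, the only other hepatocyte marker tested, was also very low, with means of 0.39 CPM in the vector control, 0.39 in EMX1-FL and 0.40 in EMX1-X1. Its log2 fold changes were 0.03 (95% interval -1.54 to 1.61) and 0.05 (-1.52 to 1.62), with edgeR unadjusted p = 0.964 and 0.949. These intervals are too wide to show whether it changed. Of the 8 mesenchymal markers 3 were higher and 0 lower in EMX1-FL at an unadjusted p under 0.05, against 3.97% and 1.83% of all genes. In EMX1-X1 2 were higher and 0 lower, against 5.95% and 2.16%. Between the isoforms 0 were higher and 1, AXL, was lower in EMX1-FL (-0.58, edgeR unadjusted p = 0.00771, adjusted p = 0.611). Their part in the values of the lipid synthesis genes was not tested.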

How the data were processed

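RNA-seq libraries of SNU-398 cells (3 vector control, 3 EMX1-FL, 3 EMX1-X1) took their groups from the sample labels. Raw counts for each gene name, not normalized, and log2(TPM + 1) values were deposited. The second, on a log2 scale, were checked by recomputing them from the deposited counts and listed gene lengths. The submitters' processing notes name bcl2fastq 2.1.7, fastp, STAR, featureCounts 2.0.6 and hg38. The header of the count table names featureCounts 2.0.1 with Ensembl release 99 of GRCh38, and the methods name RSEM. By that header no strand option was set, and read pairs on more than 1 gene were not counted. Every count column was mapped to a sample, with 0 left unused.

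Tests used edgeR 4.0.16 in R 4.3.3: TMM factors, filterByExpr, quasi-likelihood F test, group as the only term, 9 libraries, 6 residual degrees of freedom, and Benjamini-Hochberg adjustment over all genes tested. Exact permutation tests of log2 CPM were two-sided, with 0.1 as the smallest p. The precision of each value is limited by 3 libraries per group and by the gene's counts. The model was tested on simulated counts, drawn independently for each gene and library. They held no library clusters, so that check does not cover the clusters seen here. The 28 genes and the other lists were chosen with earlier results of these data known. Genes given in full are those with an unadjusted p under 0.05, SREBF1, SREBF2, SCAP, INSIG1 and FASN, and up to 5 genes a comparison of the other lists. STARD4, ELOVL6, SQLE, SCD, MSMO1, ACACA, PMVK, MVD, CYP51A1 and TM7SF2 were also described in other comparisons or for their spread, after their values were seen. Positions come from the count table, GC content from GENCODE release 29 and promoters from RefSeq.

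The alternatives were DESeq2 1.42.0, limma 3.58.1 with a pseudocount of 1 or 0.1 on TPM, scaling by library size only, by RLE or by upper-quartile factors, filters of 1 count in total or 10 in every library, a fit without the third group, a block for the replicate number, the library cluster as a covariate, a GC offset (loess, span 0.3) alone or with the block, and each library left out. Over the 3 comparisons pooled, libraries with the same number did not deviate together (mean residual correlation -0.13, against 0.06 for other pairs). The numbers were therefore not treated as pairs. By comparison the values were -0.14 and 0.07 for EMX1-FL against the vector control and -0.35 and 0.16 between the isoforms. For EMX1-X1 against the vector control they went the other way, at 0.11 and -0.06. Plots were drawn with matplotlib 3.10.9 in Python 3.11.15.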

Additional observations from a re-analysis of the deposited data

Results flagged for a closer look

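For HMGCS1, 1 of the 28 genes, all 3 EMX1-FL libraries were above the vector control mean of 121 CPM and 0 of the 3 EMX1-X1 libraries were, though EMX1-X1 1 was level with that mean and EMX1-FL 1 lay inside the control range. The difference between the isoforms was 0.62 on the log2 scale (edgeR unadjusted p = 0.00533, adjusted p = 0.611), so it does not pass the correction over all genes tested.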

How the results depend on the processing

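The number of the 28 genes with an unadjusted p under 0.05 depended on the setting. In EMX1-FL against the vector control the 2 genes became 4 by limma on log2(TPM + 1) or log2(TPM + 0.1) and with no filter beyond 1 count, 1 in a fit of only the 6 libraries compared, 1 with the replicate block, 9 with the cluster as a covariate, 8 with the GC offset and 5 with the GC offset and replicate block. The share of all genes called was 5.8% at first, between 3.87% and 6.29% in the first 5 of these settings and 15.1%, 12.9% and 11.1% in the last 3. With each library left out the count ran from 0 to 11, the DEG count from 0 to 1 and the median log2 fold change from -0.18 to 0.26. Without EMX1-FL replicate 1 the count was 11 (16.4% of all genes) and the median -0.18. The count was 0 without vector control replicate 1 or EMX1-FL replicate 3 and 1 without vector control replicate 3, EMX1-FL replicate 2, EMX1-X1 replicate 2 or EMX1-X1 replicate 3. In these fits with a count of 0 or 1 between 2.99% and 3.71% of all genes were higher and between 1.24% and 1.48% lower. In EMX1-X1 against the vector control the 1 gene became 4 with no filter beyond 1 count, 3 with only the 6 libraries compared, 0 with the replicate block and 2 with the cluster covariate, the GC offset, or the GC offset and replicate block (7.34%, 13.1%, 5.23%, 12.6%, 12.5% and 10.4% of all genes, in that order). It ran from 0 to 4 over the libraries left out (4 without EMX1-X1 replicate 1, where 17.1% of all genes were called, 3 without EMX1-FL replicate 1, 0 without vector control replicate 2 or 3 or EMX1-X1 replicate 2 or 3). Without EMX1-FL replicate 1, 10.4% of all genes were higher and 4.25% lower. In the fits with a count of 0 between 2.51% and 4.59% were higher and between 0.839% and 2.63% lower. In EMX1-FL against EMX1-X1 the 7 genes became 2 with only the 6 libraries compared (4.48% of all genes) and 2 with the replicate block (4.04%), against 8 with the cluster covariate (12.9%) and 5 with the GC offset (9.2%), of which SC5D and FASN were new and SREBF1, SREBF2, SCAP and STARD4 were lost. With each library left out they ran from 1 to 18, the DEG count from 0 to 2 and the median from -0.21 to 0.17, with 18 (34.7% of all genes) and -0.21 without EMX1-FL replicate 1, 1 without EMX1-X1 replicate 2, 2 without EMX1-FL replicate 2 or 3 or EMX1-X1 replicate 3, and 3 without vector control replicate 1 or 2. In these fits with a count of 1 to 3 between 0.834% and 2.37% of all genes were higher and between 1.17% and 3.65% lower. The cause of these shifts was not tested. HMGCS1 between the isoforms and EMX1 against the vector control stayed past the unadjusted threshold in all 22 alternatives, and no called gene changed sign.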
